A study of Coprinopsis cinerea with 4 samples.

Results

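The gene regions that lie at and around the centromeres of the mushroom Coprinopsis cinerea were described in hyphae and in oidia. Of 13236 gene regions in the table, 757 overlapped an interval listed as a centromere or lay within 100 kb of its start or end on the same chromosome. These members were chosen by position alone, and no RNA value entered the choice. A further condition, at least 100 kb from the ends of the chromosome, removed 0 regions. The table held 9 centromere intervals, on chromosomes 2, 3, 4, 5, 7, 8, 9, 10 and 11. The centromeres of the other 4 of the 13 chromosomes were not analysed here. Each gene region belonged to a class named in the table as orthologous, paralogous or orphan.

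The study compared RNA of 2 stages of strain okayama7#130. Hyphae, the growing filaments of the vegetative mycelium, were sequenced in 2 libraries. Oidia, single-celled asexual spores, were sequenced in 2 libraries. Poly(A)-selected RNA was used for both stages. Hyphae were prepared with an Illumina kit and oidia with a SOLiD kit, so a difference between stages cannot be told apart from one between kits, nor fewer expressing cells from less RNA per cell. The labels do not name separate cultures, and p-values therefore reflect only how far these libraries differ, possibly for technical reasons. The members held 256194 and 199181 reads in hyphae replicates 1 and 2, against 267518 and 216239 reads in oidia replicates 1 and 2. That was 4.92% ± 0.152 of all gene-region reads in hyphae and 3.18% ± 0.0355 in oidia (SD, n = 2 each), for 5.72% of the regions by number. Such a share is not the level of a typical member, as abundant regions weigh most in the total. Orphan regions within 100 kb of chromosome ends alone held 790748 of 5091616 reads in hyphae replicate 1 and 1028949 of 8344257 in oidia replicate 1. Median levels are given below.

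A centromere is the chromosome segment on which the kinetochore is assembled, the protein structure that ties the chromosome to the spindle. In many fungi it is a regional centromere, a long stretch rich in transposons and repeats, poor in genes and packed in heterochromatin, with genes returning at its borders. In C. cinerea repeats and transposons carry DNA methylation, and its TET/JBP dioxygenases, to which the series title refers, oxidise methylcytosine. Only locus identifiers could be given for genes, as product names were not found in the files. The identifier of a region was taken from the RefSeq gene of assembly CC3 that held the interval, and 700 of the 757 members had one. The genome build of the table was not named, and coordinates are given as in the table. Its intervals followed those gene models, usually without the 3 bases of the stop codon, which also gave the strand of 643 members. No DNA sequence was available to print.

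The intervals listed as centromeres were mostly repeat-rich and gene-poor, with 3 exceptions. On chromosomes 2, 3, 4, 7 and 8 gene regions covered between 6.43% and 21.4% of the interval, while repeats and transposons covered between 23.9% and 36.7%. On chromosome 10 the shares were 34.6% and 76.9%, with paralogous regions that overlapped repeats. In the 100 kb flanks of these 6 intervals gene regions covered 60.4% to 84.97% and repeats 0.713% to 3.36%. The interval on chromosome 5 went against this picture, with 55.3% of its 70 kb in gene regions and 0.189% in repeats. The interval on chromosome 11 was only 11 kb long, held 51.9% gene regions and 0% repeats, and the 100 kb to its right held 21.4% repeats. The interval on chromosome 9 was 1 kb long and overlapped 1 region. The 9 windows, each an interval with its flanks, made up 6.02% of the chromosome span but held 22.3% of the 900 rows listed as repetitive and 39.5% of the 114 retroposon rows. Gene regions stood at 35.2 per 100 kb in the windows and 37.0 per 100 kb over the chromosomes.

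**Figure D1:**
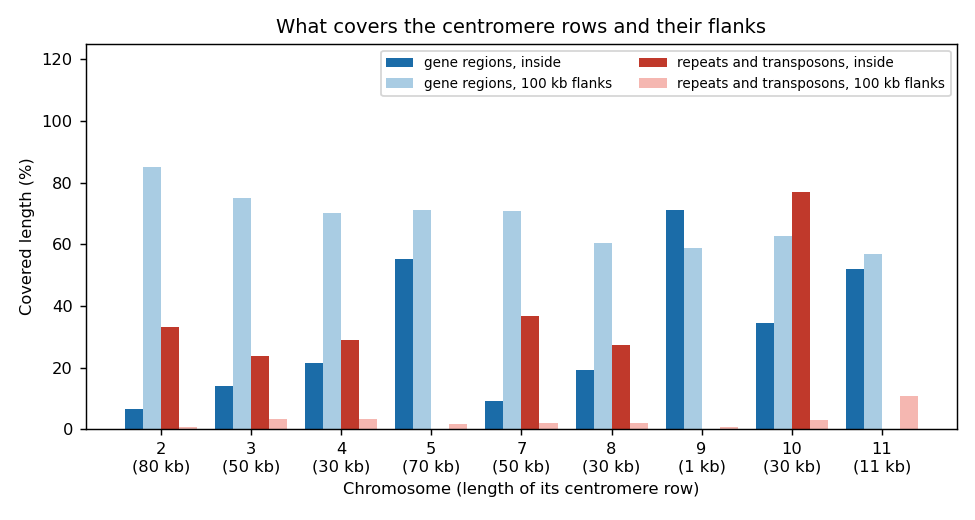
Share of length (percent, y axis) covered by gene regions (blue) and by repeats and transposons (red) inside each listed centromere (dark) and in its 100 kb flanks (light), by chromosome (x axis, with the length of the interval). Repeats stand above gene regions inside the intervals of chromosomes 2, 3, 4, 7, 8 and 10, and are at or near 0% inside those of chromosomes 5, 9 and 11.

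Gene regions that overlapped a centromere interval carried little or no RNA, apart from those on chromosomes 5 and 11 and at the left edge of chromosome 2. Of the 58 overlapping regions 35 had no read in oidia, and 12 of these had none in hyphae either. By class, 1 of 16 orthologous, 18 of 20 paralogous and 16 of 22 orphan overlapping regions had no oidia read. That is 6.25%, 90.0% and 72.7%, against 0.272%, 39.1% and 25.6% of all members of these classes, the overlapping ones included. The 0.272% is the same 1 orthologous region. Over all 58 the median level was 0.327 and 0.178 CPM per kb in hyphae replicates 1 and 2 and 0 in both oidia libraries. The 16 orthologous ones alone had medians of 16.4 in hyphae and 20.8 in oidia, against 16.8 and 20.3 for all orthologous members, these 16 included. Of the 16, 15 had enough reads to test, and all 15 lay on chromosomes 5 and 11 or at the left edge of chromosome 2. The other had no oidia read. These medians thus say little about the repeat-rich parts of the intervals. Whether class or position goes with the missing reads was not tested. CPM is the read count divided by the scaled library size, in the usual CPM units, and CPM per kb divides it by the length of the region. A count of 0 allows up to 0.376 CPM in oidia and 0.216 CPM in hyphae, from a limit of 3 reads over the 2 libraries of a stage, which covers counting error only. Only 21 of the 58 had enough reads to test, against 567 of the 699 members outside the intervals. Without chromosome 5, left out after its values were seen, 29 of 37 overlapping regions had no oidia read. Without chromosomes 5 and 11 it was 29 of 31, of which 9 had no hyphal read either. The 2 regions with oidia reads, CC1G_05206 and CC1G_05207, sat at the left border of the chromosome 2 interval. CC1G_05206 had 42.9 and 41.2 CPM in hyphae, against 80.8 and 67.5 CPM in oidia, and CC1G_05207 had 37.3 and 43.0 CPM in hyphae, against 54.8 and 52.0 CPM in oidia.

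The chromosome 5 interval held 21 gene regions, 15 of which could be tested. Its left part, from 861373 to 881539, was a block of 6 neighbouring regions from CC1G_11376 to CC1G_00007 with 10 and 6 hyphal reads in all and none in oidia. Its right part held abundant genes. CC1G_00014 had 26.5 and 24.1 CPM in hyphae, against 626 and 647 CPM in oidia. Its log2 fold change, here always hyphae over oidia and given with its SE, was -4.65 ± 0.09. CC1G_00024 had 72.0 and 73.9 CPM in hyphae, against 637 and 620 CPM in oidia (log2 fold change -3.11 ± 0.08). In both genes all oidia values lay far above all hyphal values. They were picked after their values were seen, for their place inside the interval.

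A block of neighbouring regions without an oidia read was found in each window. The longest of each window had between 3 and 11 regions, 63 in all, of which 36 were paralogous, 26 orphan and 1 orthologous. In 8 of the 9 windows this block included regions that overlapped the interval. On chromosome 10 it ran over 11 regions and 44.4 kb, from CC1G_13394 to CC1G_15327. On chromosome 3 it ran over 10 regions and 73.5 kb, and on chromosome 4 over 9 regions and 40.9 kb. The block on chromosome 11 lay outside the listed interval, from 3.94 to 50.6 kb to its right, where 8 regions from CC1G_11623 to CC1G_10903 held 14 and 4 hyphal reads and none in oidia, and where repeats covered 27.8% of the length. The 63 regions held 111 reads in hyphae replicate 1 and 62 in replicate 2, a ratio of 1.79, where all members had 1.29. Why the replicates differ in these few counts was not tested. Blocks of at least 5 such regions were not limited to centromeres: 9 touched the members, 20 lay near chromosome ends and 63 elsewhere, the longest with 11, 30 and 38 regions. The blocks held 66, 195 and 759 regions, where the members, the regions near ends and the others numbered 757, 914 and 11565.

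RNA levels returned within a few regions of the border. Of the 18 regions next to an interval, the nearest on each side at 0.292 to 5.39 kb, 5 had no read in any library and 4 had between 1 and 5 reads in all. The 9 others could be tested, and they included all 7 orthologous regions among the 18 and 2 of the 11 paralogous or orphan ones. Among the nearest regions 10 of 18 had no oidia read, among the second nearest 7 of 18, among the third nearest 3 of 18, among the fourth nearest 4 of 18 and among the fifth nearest 2 of 18. Median levels were 1.06 CPM per kb in hyphae and 0 in oidia for the nearest regions, and 12.4 and 11.4 for the third nearest. For the second nearest the medians were 10.7 in hyphae and 9.30 in oidia, for the fourth nearest 7.68 and 6.83 and for the fifth nearest 5.10 and 9.54. Orthologous regions made up 38.9%, 44.4%, 61.1%, 44.4% and 55.6% of the nearest to the fifth nearest.

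**Figure D2:**
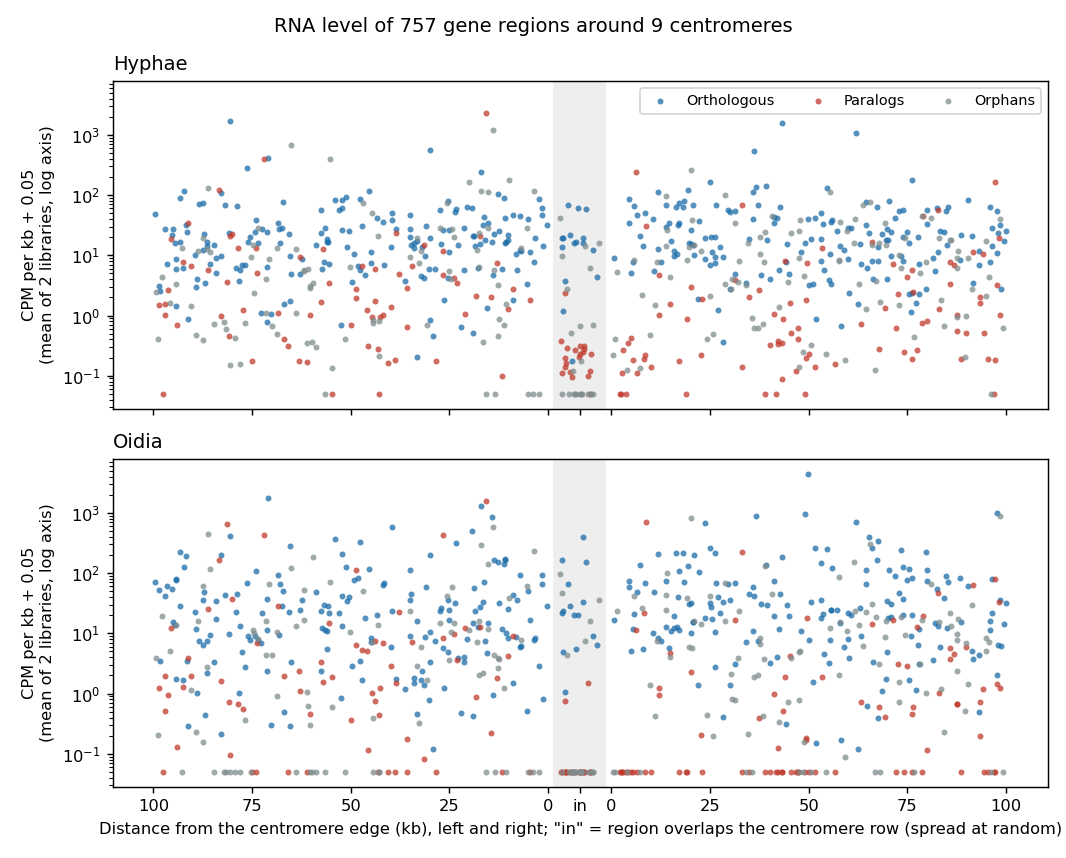
RNA level of the 757 members (y axis, mean CPM per kb of 2 libraries plus 0.05, log scale) against the distance from the edge of the listed centromere (x axis, kb to the left and right) in hyphae (top) and oidia (bottom), colored by class. Points in the grey band overlap a centromere, and 35 of those 58 lie on the floor in oidia, while most points outside the band lie above it in both stages.

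Of the 18 nearest regions 4 rose and 3 fell in hyphae, and 2 tested regions did not pass. These 7 called of 9 tested stand beside 83.0% of all tested regions, with 45.1% higher and 37.9% lower. CC1G_02527, 1.26 kb left of the chromosome 9 interval, had 22.1 and 25.8 CPM in hyphae, against 1.81 and 0.843 CPM in oidia (log2 fold change 4.09 ± 0.31). CC1G_11615 on chromosome 11 had 9.79 and 7.44 CPM in hyphae, against 1.35 and 1.12 CPM in oidia (log2 fold change 2.78 ± 0.42). The hyphal values of both lay above all oidia values. CC1G_11755, 1.52 kb right of the chromosome 2 interval, had 14.5 and 14.6 CPM in hyphae, against 75.6 and 56.8 CPM in oidia (log2 fold change -2.20 ± 0.13). CC1G_13165 on chromosome 7 had 66.8 and 68.5 CPM in hyphae, against 102 and 95.9 CPM in oidia, and CC1G_00025 on chromosome 5 had 22.3 and 24.6 CPM in hyphae, against 42.6 and 42.7 CPM in oidia. Their log2 fold changes of -0.55 and -0.87 turned to 1.00 and 0.68 when libraries were scaled by total counts, and that of CC1G_11755 shrank to -0.66. With the same scaling CC1G_11615 had 4.31, and with cyclic loess 1.76. CC1G_11555, right of the chromosome 7 interval, had 95.9 and 88.6 CPM in hyphae, against 86.6 and 69.2 CPM in oidia. Its log2 fold change of 0.24 ± 0.09 (adjusted p = 0.0145, edgeR) did not pass without hyphae replicate 1 (0.21) or without oidia replicate 2 (0.08). CC1G_13394 had 10 and 13 reads in hyphae and none in oidia. With the limit of 3 reads put in place of the missing oidia reads, its scaled read ratio was 4.403. The two-sided 95% exact interval for that assumed count of 3, not for the observed count, had a lower bound of 1.33. CC1G_13394 did not pass with cyclic loess. The orthologous regions on chromosome 2 from 2116807 to 2118442 and on chromosome 5 from 858548 to 859708 did not pass, and in both the hyphal values lay within the range of the oidia values. The first had 102 and 94.9 CPM in hyphae and 94.1 and 118 CPM in oidia, and the second had 38.3 and 36.7 CPM in hyphae and 27.1 and 39.6 CPM in oidia.

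Orthologous members had the highest median levels and paralogous members the lowest, in each of the 4 libraries. Orthologous members had a median of 16.9 and 17.1 CPM per kb in the hyphal libraries, against 20.99 and 19.7 in the oidia libraries. Paralogous members had 0.971 and 0.771 in hyphae and 0.529 and 0.263 in oidia, and orphan members lay between the other classes, with 4.21 and 4.14 in hyphae and 3.64 and 4.19 in oidia. All 367 orthologous members had a read in hyphae and 366 had one in oidia. The exception, CC1G_15065, lay inside the chromosome 8 interval and had 3 and 3 hyphal reads. By distance outside the intervals, the median over all classes was 12.2 CPM per kb in hyphae and 11.4 in oidia at up to 25 kb, 7.06 and 5.03 at 25 to 50 kb, 9.56 and 11.3 at 50 to 75 kb and 7.22 and 6.32 at 75 to 100 kb. These medians neither rose nor fell steadily with distance. At the limit of 100 kb, CC1G_00066 at 99965 bases was the last member and held 303, 236, 222 and 175 reads in hyphae 1 and 2 and oidia 1 and 2, while an orphan region at 100042 bases, CC1G_05162, was the first left out, with 819, 575, 2020 and 1552 reads.

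Set beside the other regions of the chromosomes, those at least 100 kb from any end and outside the windows, the members had a like make-up. The members were 48.5% orthologous, 23.6% paralogous and 27.9% orphan, and the others 46.0%, 26.3% and 27.7%. Regions within 100 kb of chromosome ends were 15.9%, 53.8% and 30.3%. Enough reads to test were found for 77.7% of the members, 76.8% of the others and 48.4% of the regions near ends. No read in oidia was found for 16.5% of members, 16.3% of the others and 36.9% of the regions near ends. The median level was 7.83 CPM per kb in hyphae and 7.47 in oidia for the members, against 6.001 and 4.42 for the others and 0.768 and 0.392 near ends. No test was made of these differences, and members of a window share their place on a chromosome.

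Most members that could be tested differed between the stages, as did most gene regions elsewhere. Of 588 tested members, 493 or 83.8% passed at 0.05 after Benjamini-Hochberg adjustment over all tested regions (quasi-likelihood test of edgeR), and the background over all 9917 tested regions was 83.0%. The libraries of the stages did not overlap for 90.5% of all tested regions. In hyphae 234 members rose, where 45.1% of all tested regions did, and 259 fell, where 37.9% of all tested regions did. At least 4-fold changes were found for 203 members, 103 of them higher in hyphae and 100 lower, and the background was 36.1%, with 21.2% higher and 14.8% lower. The share of members called was near the background. The members' median log2 fold change was -0.02, with quartiles of -1.33 and 1.32, and that of all tested regions was 0.25. The split into directions depends on the scaling. By total counts 431 members rose and 103 fell, with medians of 1.53 for members and 1.79 for all regions. With upper quartiles the medians were 0.25 and 0.51, with DESeq2 size factors -0.10 and 0.17 and with cyclic loess -0.12 and 0.02. Members had the lower median under each of the 5 scalings. All of these but cyclic loess shift every log2 fold change by nearly the same amount, so their likeness adds no weight. The difference was not tested.

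By class, 133 orthologous members rose and 171 fell out of 359 tested, and 55 did not pass. That is 37.0% higher and 47.6% lower, against 43.5% and 40.3% of all tested orthologous regions. Among paralogous members 41 rose, 31 fell and 20 did not pass, or 44.6% higher and 33.7% lower, against 51.1% and 29.5% of all tested paralogous regions. Among orphan members 60 rose, 57 fell and 20 did not pass, or 43.8% higher and 41.6% lower, against 44.2% and 39.0% of all tested orphan regions. The differences between members and all regions of a class were not tested. The median log2 fold changes were -0.18 for orthologous, 0.42 for paralogous and 0.21 for orphan members, against 0.10, 0.83 and 0.23 in all regions of these classes. With cyclic loess the paralogous and orphan medians turned to -0.31 and -0.19, and with upper quartiles and total counts the orthologous median turned to 0.08 and 1.36. Changes of 4-fold or more made up 28.4% of tested orthologous, 43.5% of paralogous and 44.5% of orphan members, close to 29.2%, 48.6% and 42.1% in all tested regions of these classes. By distance, 66 of 139 tested regions fell and 47 rose at up to 25 kb, and 50 of 138 fell and 64 rose at 25 to 50 kb. At 50 to 75 kb 67 of 142 fell and 52 rose, and at 75 to 100 kb 63 of 148 fell and 65 rose. The shares called were 81.3%, 82.6%, 83.8% and 86.5%, near the 83.0% of all tested regions. Of all tested regions 37.9% fell and 45.1% rose, and the split did not change steadily with distance. Of the 21 tested regions inside the intervals 13 fell and 6 rose, and 15 of the 21 were on chromosome 5.

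**Figure D3:**
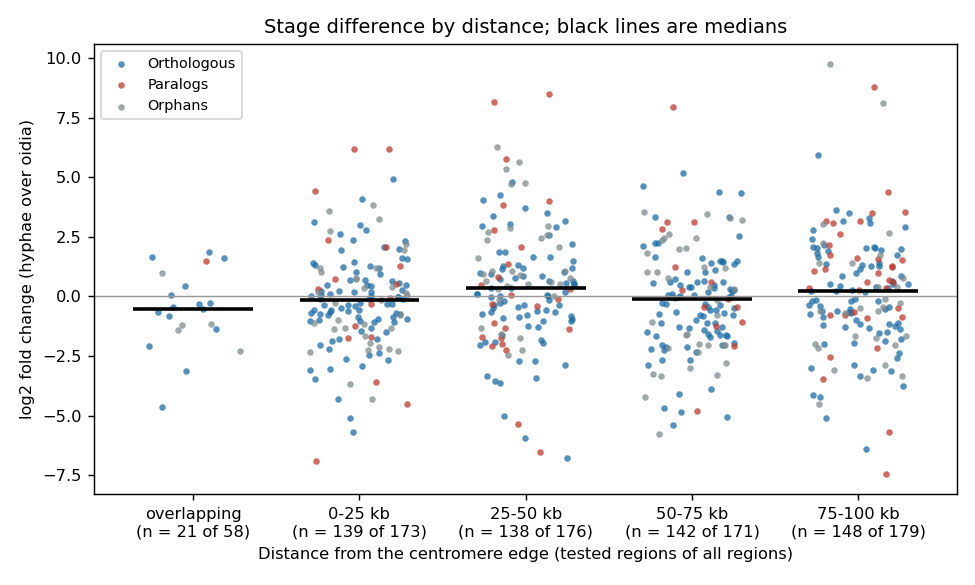
Log2 fold change (hyphae over oidia, y axis) of the 588 tested members by distance from the centromere edge (x axis, with the number tested of all members), colored by class, with the median of each group as a black line. The groups overlap almost wholly, with medians between -0.54 inside the intervals and 0.34 at 25 to 50 kb, and large changes in both directions stand in each group outside the intervals.

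The windows differed in how many of their regions could be tested. On chromosome 2, where 70 of 93 members were orthologous, 89 were tested, 33 rose and 40 fell. On chromosomes 8 and 10, where 43 of 87 and 41 of 88 members were paralogous, 53 and 58 were tested. The chromosome 8 window had the highest median log2 fold change, 0.53, with 26 regions up and 17 down, and the chromosome 10 window the lowest, -0.30, with 23 up and 27 down. Under total counts these 2 medians were 2.07 and 1.23. Under cyclic loess they were 0.11 and -0.64, and the windows of chromosomes 3 and 4, at 0.17 and 0.16, then stood above chromosome 8. The chromosome 9 window had the largest share of at least 4-fold changes, 48.3% of its tested regions, and the chromosome 2 window the smallest, 24.7%. Over all tested regions 36.1% changed at least 4-fold, and at any fold 45.1% rose and 37.9% fell.

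**Figure D4:**
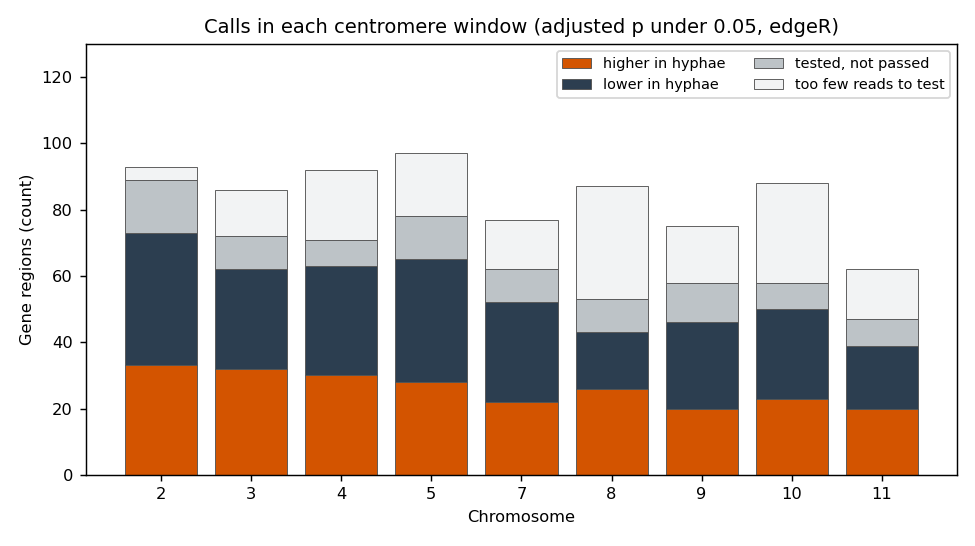
Number of members (y axis) in each of the 9 centromere windows (x axis, chromosome) that were higher in hyphae, lower in hyphae, tested without passing, or had too few reads to test. Both directions occur in each window, and the windows of chromosomes 8 and 10 hold the most regions with too few reads, 34 and 30.

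Among the 8 members with the largest rise in hyphae, 2 were paralogous regions of chromosome 10 that were all but absent from oidia. CC1G_11208, 80.7 kb left of the interval, had 129 and 114 CPM in hyphae and 0.226 and 0.281 CPM in oidia, 1 read in each oidia library. Its scaled read ratio was 490 (95% exact interval 135 to 4046), and its log2 fold change was 8.80 ± 0.27 (SE). CC1G_11723, at 31.4 kb on the same side, had 49.98 and 56.1 CPM in hyphae and 0.226 and 0 CPM in oidia, a scaled read ratio of 420 (75.2 to 16628). That ratio rests on a single oidia read in replicate 1. Its log2 fold change of 8.48 ± 0.38 went down to 7.73 when oidia replicate 2 was left out and up to 11.26 without oidia replicate 1, where no oidia read is left and the value is not a measured fold. The next gene to its left, CC1G_11722, had 46 and 43 reads in hyphae and none in oidia. The handling of reads that match several copies is not stated, which leaves the values of paralogous regions uncertain.

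The other regions of this group had reads in both stages. CC1G_03045, an orphan region 31.3 kb right of the chromosome 8 interval, had 63.5 and 62.2 CPM in hyphae, against 0.903 and 1.69 CPM in oidia (log2 fold change 5.62 ± 0.24). CC1G_11380, the second region left of the chromosome 5 interval at 2.29 kb, had 111 and 102 CPM in hyphae, against 4.06 and 2.81 CPM in oidia (log2 fold change 4.92 ± 0.17). CC1G_05324 on chromosome 11 had 195 and 187 CPM in hyphae, against 7.22 and 8.43 CPM in oidia (log2 fold change 4.62 ± 0.14). In each of these genes the hyphal values lay more than 10-fold above the oidia values. CC1G_02530, a paralogous region 6.18 kb right of the chromosome 9 interval, was the most abundant in this group, with 351 and 373 CPM in hyphae and 16.7 and 17.1 CPM in oidia. Its log2 fold change was 4.42 ± 0.11. CC1G_05184 on chromosome 2 and CC1G_12373 on chromosome 4 followed with log2 fold changes of 4.26 ± 0.24 and 4.03 ± 0.25. The separate gene row of CC1G_05184 gave 2.42, so part of its change depends on the limits used for counting. For all 8 the adjusted p was at most 3.15e-58 (edgeR). CC1G_05320, an orphan region 75.4 kb left of the chromosome 11 interval, had 156 and 114 reads in hyphae and none in oidia. With the limit of 3 reads put in place of the missing oidia reads, its scaled read ratio was 51.7. The exact interval for that assumed count of 3, not for the observed count, had a lower bound of 17.5. The gene row of CC1G_05320 held 1 oidia read.

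The 8 members with the largest fall in hyphae included a cluster on the right arm of chromosome 2. CC1G_03786 had 56.7 and 61.9 CPM in hyphae, against 6296 and 6749 CPM in oidia (log2 fold change -6.79 ± 0.08). It was the most abundant member in oidia at 4425 CPM per kb, against 40.2 in hyphae, and alone took 10.4% and 11.1% of all member reads in the oidia libraries. CC1G_03785, its neighbour, had 9.03 and 12.9 CPM in hyphae, against 645 and 680 CPM in oidia (log2 fold change -5.94 ± 0.10). The genes face each other on opposite strands with 134 bases between them. Whether the counting used strand was not given in the sources used here, and RNA reading from CC1G_03786 into CC1G_03785 cannot be told apart from its own.

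CC1G_12377, a paralogous region 26.7 kb left of the chromosome 4 interval, had 10.2 and 12.1 CPM in hyphae, against 1001 and 1031 CPM in oidia (log2 fold change -6.52 ± 0.10). CC1G_02114 on chromosome 10 had 5.596 and 6.28 CPM in hyphae, against 486 and 511 CPM in oidia (log2 fold change -6.39 ± 0.11). CC1G_07416, 14.1 kb left of the chromosome 3 interval, had 14.8 and 15.0 CPM in hyphae, against 808 and 710 CPM in oidia (log2 fold change -5.67 ± 0.10). In these genes as in the chromosome 2 pair, the libraries of a stage lay close together and the stages far apart. CC1G_11714 on chromosome 10 and CC1G_11582 on chromosome 7 had log2 fold changes of -5.78 ± 0.13 and -5.39 ± 0.09. CC1G_14855 on chromosome 7 had 2 and 2 reads in hyphae, against 221 and 208 reads in oidia (log2 fold change -7.44 ± 0.30). Its interval in the table was only 84 bases long, and its gene row, counted over other limits, gave -9.26. For all 8 the adjusted p was at most 2.92e-132 (edgeR), and all stayed lower in hyphae under each scaling.

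**Figure D5:**
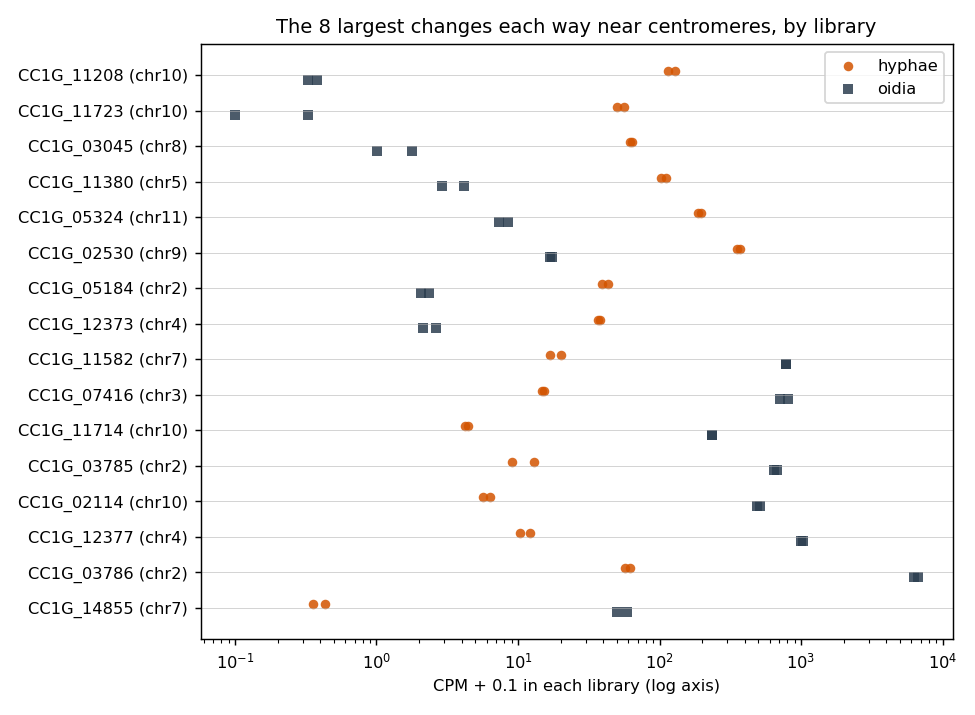
CPM plus 0.1 in each of the 4 libraries (x axis, log scale; hyphae as orange circles, oidia as dark squares) for the 8 members with the largest rise (top) and the 8 with the largest fall (bottom) in hyphae. The 2 libraries of a stage lie close together in most rows, and the stages do not overlap in any row, which was a condition of the choice.

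The most abundant members per length were orthologous or paralogous regions with RNA in both stages. CC1G_12265, a paralogous region 15.8 kb left of the chromosome 8 interval, was among the leading 3 of both stages. It had 1471 and 1536 CPM in hyphae and 1043 and 1044 CPM in oidia, which is 2289 CPM per kb in hyphae and 1589 in oidia. Its log2 fold change of 0.53 ± 0.06 was 2.07 by total counts and 2.61 with cyclic loess. CC1G_07391 on chromosome 3 had 1673 and 1747 CPM in hyphae, against 420 and 425 CPM in oidia (log2 fold change 2.02 ± 0.07). An orthologous region on chromosome 5 from 973141 to 974426 had 1930 and 2055 CPM in hyphae, against 236 and 243 CPM in oidia (log2 fold change 3.06 ± 0.07). Another on chromosome 7 from 1798587 to 1799150 had 236 and 234 CPM in hyphae, against 894 and 1124 CPM in oidia (log2 fold change -2.10 ± 0.07), and its oidia libraries differed from each other more than its hyphal ones. By total counts its log2 fold change was -0.55 and with cyclic loess -0.45. The same scalings gave 3.56 and 3.93 for CC1G_07391, and 4.60 and 4.86 for the chromosome 5 region. The 10 members with most reads took 30.2% ± 0.338 of member reads in hyphae and 28.7% ± 0.912 in oidia (SD, n = 2 each).

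More members lacked reads in oidia than in hyphae, as did regions elsewhere. No read in any library was found for 28 members, 18 of them orphan and 10 paralogous, 12 inside the intervals. Another 97 members had hyphal reads but no oidia read, 60 paralogous, 36 orphan and 1 orthologous, with a median of 3 hyphal reads. Only 7 of these 97 could be tested. Hyphal reads alone were thus found for 12.8% of members and 15.1% of all gene regions, and oidia reads alone for 0.264% and 0.332%. The members with oidia reads alone were 2, CC1G_11397 on chromosome 5 with 13 and 8 oidia reads, and CC1G_11719 on chromosome 10 with 1 and 0. The members with hyphal reads alone held 4.65 and 3.22 reads per kb in hyphae 1 and 2. Rows listed as repetitive inside the windows held 1.14 and 0.728 per kb in hyphae 1 and 2, against 0.268 and 0.192 in oidia 1 and 2. The 45 retroposon rows there had 0.538 and 0.170 per kb in hyphae and no read in oidia.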

How the data were processed

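Per the file headers, the authors deposited a table of read counts for genes and conserved elements in each library, and every test used these counts. The deposited mean signal of each stage (counts over DESeq size factors) and the deposited fold ratio were used only in checks. The log2 columns are described as hyphae over oidia, but in all 21769 rows with a finite value the first equals oidia over hyphae of the mean signals (relative tolerance 1e-06). An alternative used the deposited adjusted p-value with the second log2 column, which adds 0.1 to each mean, with its sign turned to give hyphae over oidia. Tools named in the submitters' processing notes were TopHat, DESeq and Bowtie 0.12.7. Genome build, counting program, strand use and the treatment of multiply matching reads were not given in the sources used here.

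All orthologous, paralogous and orphan rows were fitted together with edgeR 4.0.16 (quasi-likelihood, filterByExpr) in R 4.3.3. Library sizes and TMM factors came from the gene rows (4586306 and 3546635 gene reads in hyphae, 7519091 and 6128727 in oidia, factors 1.71, 1.70, 0.589 and 0.580). The Benjamini-Hochberg adjusted p ran over all 9917 tested rows, with a threshold of 0.05. Each standard error is an approximation, the log2 fold change divided by the square root of F. With 2 libraries a stage, an exact two-sided permutation p is never under 33.3%. On simulated counts of the gene regions the same fit recovered 42% of regions changed 1.5-fold, 68% at 2-fold, 84% at 4-fold and 84% at 8-fold, of 50 each, with 6 false calls. At 8-fold 42 of the 50 had enough reads to test, and all 42 were called. All other simulated regions were unchanged, and the scaling was correct by design. The simulation therefore cannot show how reliable calls are where most regions differ and the scaling is in doubt.

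Named regions were the 8 largest changes each way that passed at 0.05, averaged 100 normalized counts or more and did not overlap between stages, the 3 most abundant per length in each stage, the nearest region on each side of each interval, and regions with at least 100 reads in a stage and 0 in the other. The members and lists were chosen with earlier results of these data known. Kinetochore genes and cell markers could not be looked up, since no product names were available. Replicates differed by more than sampling noise among members (chi-square per degree of freedom 1.29 in hyphae and 2.29 in oidia, over regions with at least 20 reads). Over all gene regions, the set that was fitted, the values were higher, 4.56 in hyphae and 3.63 in oidia.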

Additional observations from a re-analysis of the deposited data

How the results depend on the processing

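The medians moved with the scaling, the filter and the choice of regions, and the cause was not tested. The median log2 fold change of members was -0.02 as reported, -0.10 with DESeq2 size factors, 0.25 with upper quartiles, 1.53 with total counts, -0.12 with cyclic loess, 0.0139 with the DESeq2 1.42.0 Wald test, 0.29 from the authors' deposited table (its log2 column with the sign turned, over 729 members), 0.32 with no low-count filter, -0.55 with a mean count of at least 100, 0.00799 at 50 kb and 0.0106 at 200 kb, and -0.0926 without paralogous regions. Of alternatives chosen after seeing the data, it was -0.0687 with gene rows and 0.00731 without overlapping regions. Leaving out each library gave -0.0429 to -0.0122. With total counts 431 members rose and 103 fell. A mean count of at least 100 left fewer regions to test, with 315 called, 113 of them higher, and 114 at least 4-fold. A distance of 50 kb, with fewer regions by construction, gave 246 called, 117 higher, 129 lower and 95 at least 4-fold, and 200 kb gave 995, 488, 507 and 408. Leaving out each library in turn, where a lone library is assumed to vary like the other stage, gave 437 to 482 called against 493. The authors' deposited table called 434 and the Wald test 417. No member interval was listed more than once, so counting each once changed nothing.

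Among named regions the orthologous region of chromosome 2 from 2116807 turned from -0.09 to 0.17 with upper quartiles, 1.46 with total counts, 0.77 with cyclic loess and 0.0567 without oidia replicate 2, and passed at -0.245 without oidia replicate 1. That of chromosome 5 from 858548 turned from 0.20 to -0.0702 without oidia replicate 1, and passed at 0.46 without oidia replicate 2, 0.46 with upper quartiles and 1.74 with total counts. CC1G_00025 turned to 0.68 with total counts, and CC1G_13165 to 1.00 with total counts and 0.18 with cyclic loess. CC1G_13394 did not pass with cyclic loess, at 0.0759. CC1G_11555, at 0.24, did not pass with DESeq2 size factors (0.16) or the Wald test (0.20). With the replicate number as a block 482 members were called. The deviations of same-numbered libraries had a correlation of 0.00318 over 8402 regions, and the libraries share only a number. Regions with few reads remain limited by depth: 169 members could not be tested.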

Other observations

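Several neighbouring members moved the same way. Of 349 pairs of next neighbours in which both passed, 58.5% had the same direction, and over all gene regions it was 60.0% of 5804 pairs, so the members did not stand out in this share. The longest run lay on chromosome 2 from 2074840 to 2096184, where 10 neighbouring regions from CC1G_05186 to CC1G_13956, 8 of them orthologous, were higher in hyphae, with log2 fold changes of 0.41 to 3.49. Summed over the run they had 1601 and 1633 CPM in hyphae, against 633 and 662 CPM in oidia. Most of this was CC1G_05192, with 1045 and 1067 CPM in hyphae and 361 and 399 CPM in oidia. All 10 kept their sign under the 5 scalings. A run of 9 on chromosome 4 from 1597632 to 1618862 was also higher in hyphae, led by an orthologous region from 1617480 with 18.3 and 19.7 CPM in hyphae and 0.677 and 0.281 CPM in oidia, and all 9 kept their sign under the 5 scalings.

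The longest run in the other direction held 8 regions of chromosome 2 from 2241292 to 2255036, CC1G_03782 to CC1G_03789, around CC1G_03785 and CC1G_03786. Next to that pair CC1G_03787 had 61.8 and 61.7 CPM in hyphae and 385 and 405 CPM in oidia, and CC1G_03788 had 66.1 and 69.0 CPM in hyphae and 210 and 186 CPM in oidia. The log2 fold changes were -2.68 and -1.56, and those of the outermost regions CC1G_03782 and CC1G_03789 were -0.78 and -0.98. The size of the change thus fell with distance from CC1G_03786 on both sides. With total counts 4 of the 8 kept their sign. The runs were picked after their values were seen.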
